A study of Homo sapiens with 42 samples.

Results

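KCl 1h was compared directly with JTE 1h in poly(A) mRNA of K562 cells, an established human line from chronic myeloid leukaemia, as a test of osmotic stress against a block of 3′ end cleavage. The comparison rests on the 3 KCl 1h and the 3 JTE 1h mRNA libraries, 6 of the 42 libraries of the series, chosen by their column names. The KCl cells received 110 mM KCl in their growth medium for 1 h, the JTE cells received 5 μM JTE-607 for 1 h, and the CTRL cells received neither. No allele or transgene was used, every library came from the same line, and each group had 3 biological replicates. Because the samples are bulk RNA, fewer transcripts per cell and fewer expressing cells cannot be told apart.

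Both agents are known to leave RNA polymerase II running past the ends of genes. JTE-607 is a prodrug that inhibits CPSF73, the nuclease that cuts the new transcript at its poly(A) signal. Hyperosmotic salt shrinks the cell, activates stress kinases such as p38 and JNK, and is known to raise immediate early genes and transcription downstream of gene ends. Immediate early genes are short genes with paused polymerase that are transcribed within minutes of a signal and whose mRNAs decay fast.

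Library totals were 19270518, 62953314 and 42474454 counts of read pairs in KCl 1h replicates 1 to 3, from 19219839 to 20323444 in JTE 1h and from 17855236 to 19031221 in CTRL. The deeper sequencing of KCl replicates 2 and 3 gave them a finer floor for rare transcripts, and their part in the results was examined by thinning every library to the smallest total. Levels are CPM, the share of a library's read pairs on a common scale, corrected by edgeR's TMM factors. All 12 K562 markers on the list, among them GATA1, TAL1, HBG1 and TFRC, were tested and none was called, with a summed level of 4645 to 6456 CPM in KCl 1h and 4648 to 6163 CPM in JTE 1h. Of 8 markers of other cell types, MS4A1 had 0 counts in the KCl 1h, JTE 1h and CTRL libraries, CD3E stayed at or under 0.16 CPM, and EPCAM, at 80.8 to 100.1 CPM, made up most of a summed level of 96 to 109 CPM in KCl 1h and 103 to 112 CPM in JTE 1h, which overlap.

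Of 18095 genes tested, 777 (4.29%) differed between KCl 1h and JTE 1h, with 464 higher (2.56%) and 313 lower (1.73%) in KCl. The call needed an adjusted p of edgeR's quasi-likelihood test under 0.05 together with more than 0.6 of log2 fold change in either direction. Against the shared CTRL libraries, the same fit called 986 genes (5.45%) for KCl 1h, 454 of them higher, and 154 genes (0.851%) for JTE 1h, 70 of them higher. The 3 KCl and the 3 JTE libraries did not overlap for 760 of the 777 called genes, beside 3063 of all tested genes (16.9%). With the replicate number as a block the count was 1038 (5.74%), 586 higher (3.24%) and 452 lower (2.5%), and it held 776 of the 777. With every library thinned to the smallest total, 651 genes were called, 387 higher and 264 lower. In a fit of the 6 compared libraries alone, 299 genes were called without the replicate block and 1063 with it (548 higher, 515 lower), and without KCl replicates 2 and 3, the deepest libraries, 142 were called.

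**Figure D1:**
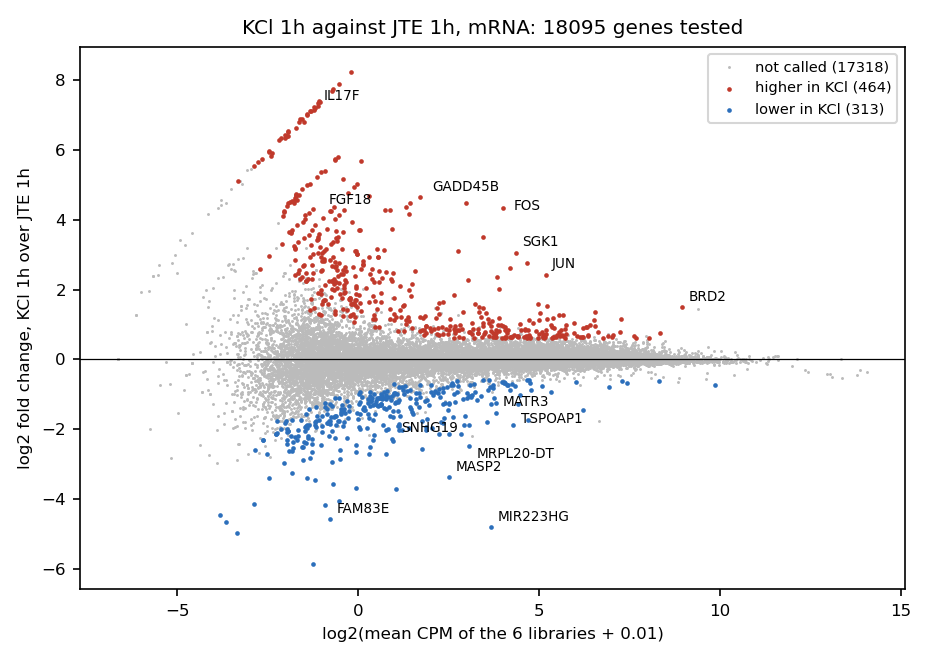
Each point is 1 of the 18095 tested genes, with log2 of its mean CPM over the 6 libraries plus 0.01 on the horizontal axis and its log2 fold change of KCl 1h over JTE 1h on the vertical axis, and the coloured points are the 464 genes called higher and the 313 called lower. The called genes lie across the range of levels, but 229 of the 464 higher genes (49.4%) had a mean under 1 CPM over the 27 mRNA libraries. FOS, FOSB, GADD45B and SGK1 stand above 3 on the vertical axis while MIR223HG and MASP2 lie under -3.

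Immediate early genes had the highest median of the lists for KCl over JTE. Of 33 listed genes 28 were tested, 9 were higher in KCl (FOS, FOSB, JUN, JUNB, NR4A2, IER3, IER5, KLF4 and CCN1) and none was lower, beside 2.56% higher over all genes. The median log2 fold change was 0.62 (0.59 with the 1 member at or under 3 counts in JTE set to its bound) beside -0.01 over all genes. Over CTRL 7 of the 28 were called higher in KCl, beside 2.51% over all genes, and none was called in JTE, beside 0.851%. The medians over CTRL were 0.16 in KCl and -0.30 in JTE, where 23 of the 28 were negative. IER5 (0.19) and CCN1 (0.35) were not called in KCl over CTRL. FOS, FOSB and JUN, which encode subunits of the transcription factor AP-1, and GADD45B, a stress sensor upstream of p38 and JNK, were all among the 12 largest rises. The windows around their start sites are shown because these genes are described first, and to compare the 3 AP-1 genes. They come from RefSeq, build GRCh38.p14, run 5′ to 3′ on the gene's strand from 250 bases before to 50 bases after the start, and have the letters TATAAA and TGACG in capitals.
FOS, chr14:75278578-75278877, plus strand: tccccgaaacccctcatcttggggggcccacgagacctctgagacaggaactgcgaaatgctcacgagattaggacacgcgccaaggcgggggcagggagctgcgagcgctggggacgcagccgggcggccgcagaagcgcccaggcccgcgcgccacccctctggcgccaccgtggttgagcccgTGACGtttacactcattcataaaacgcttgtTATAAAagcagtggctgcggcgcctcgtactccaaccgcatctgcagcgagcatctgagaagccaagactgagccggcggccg
FOSB, chr19:45467746-45468045, plus strand: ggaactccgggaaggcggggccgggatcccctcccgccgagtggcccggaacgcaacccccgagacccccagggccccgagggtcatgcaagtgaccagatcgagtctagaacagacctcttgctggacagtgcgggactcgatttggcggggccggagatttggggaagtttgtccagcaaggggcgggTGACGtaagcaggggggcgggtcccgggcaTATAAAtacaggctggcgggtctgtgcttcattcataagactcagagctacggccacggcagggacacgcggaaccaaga
JUN, chr1:58783998-58784297, minus strand: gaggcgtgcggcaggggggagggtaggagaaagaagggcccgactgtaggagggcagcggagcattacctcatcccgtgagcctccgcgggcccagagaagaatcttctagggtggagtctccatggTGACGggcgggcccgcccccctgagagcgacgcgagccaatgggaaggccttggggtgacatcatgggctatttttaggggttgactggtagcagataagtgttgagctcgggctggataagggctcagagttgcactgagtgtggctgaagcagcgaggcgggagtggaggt
GADD45B, chr19:2475877-2476176, plus strand: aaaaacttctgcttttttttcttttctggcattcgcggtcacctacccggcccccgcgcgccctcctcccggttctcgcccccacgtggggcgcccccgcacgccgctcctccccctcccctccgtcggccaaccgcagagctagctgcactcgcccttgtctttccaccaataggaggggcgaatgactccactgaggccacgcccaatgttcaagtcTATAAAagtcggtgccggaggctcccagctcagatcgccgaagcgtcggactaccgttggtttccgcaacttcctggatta

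TATAAA, the core of a TATA box, began 33 bases before the start in FOS, 30 in FOSB and 31 in GADD45B, and was not in the window of JUN. TGACG, the half-site bound by CREB and ATF factors, began 64 bases before the start in FOS, 60 in FOSB and 123 in JUN. Searched on both strands of all 35116 windows in the table, TATAAA was present in 11.5%, TGACG in 24.6%, the full site TGACGTCA, which contains TGACG, in 1.85%, and the AP-1 site TGACTCA in 4.95%. Among the 12 largest rises in KCl 9 genes had a window in the table, of which 5 held TATAAA, 3 held TGACG and none held TGACGTCA or TGACTCA. Among the 12 largest falls 8 genes had a window, of which 2 held TATAAA, 5 held TGACG, 1 held TGACGTCA and none held TGACTCA.

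FOS (ENSG00000170345) was at 34.1, 15.3 and 42.1 CPM in the KCl libraries, at 2.67, 0.829 and 0.961 CPM in the JTE libraries and at 0.827, 3.2 and 2.73 CPM in CTRL. All 3 KCl libraries lay above all JTE and CTRL libraries, and JTE and CTRL overlapped. The log2 fold change of KCl over JTE was 4.35 (SE 0.51, edgeR adjusted p 9.32e-06). FOSB was at 20, 10.2 and 30.2 CPM in KCl against 1.26, 1.09 and 2.99 CPM in JTE, again without overlap, a log2 fold change of 3.50 (SE 0.43, edgeR adjusted p 1.41e-05). JUN was at 48.8, 43.0 and 91.7 CPM in KCl, 13.3, 11.1 and 9.71 CPM in JTE and 16, 18.5 and 24.9 CPM in CTRL. Every JTE library of JUN was under every CTRL library, although JTE 1h against CTRL (log2 fold change -0.80, edgeR adjusted p 0.278) was not called. KCl over JTE gave 2.43 (SE 0.28, edgeR adjusted p 5.98e-06) for JUN.

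GADD45B (ENSG00000099860) had the largest log2 fold change among the genes of mean 10 CPM or more in KCl. Its levels were 13.3, 8.19 and 23.4 CPM in KCl, 0.524, 0.57 and 0.907 CPM in JTE and 0.606, 0.314 and 1.39 CPM in CTRL. KCl was 22.3-fold higher than JTE (log2 fold change 4.48, SE 0.52, edgeR adjusted p 6.86e-06), while JTE and CTRL overlapped. At 3 h of KCl the mean level had reached 111 CPM. Its relative GADD45A, at 99.2, 58.5 and 54.4 CPM in KCl and 89.9, 58.4 and 45.1 CPM in JTE, overlapped between the treatments (log2 fold change 0.13, edgeR adjusted p 0.968).

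Several other regulators rose with these genes, named by the rule for the 12 largest rises. SGK1, a kinase of ion transport induced by cell shrinkage, was at 34.6, 29.3 and 46.5 CPM in KCl and 3.14, 3.94 and 6.14 CPM in JTE, without overlap, a log2 fold change of 3.06 (SE 0.37, edgeR adjusted p 1.19e-05). IER3, an immediate early survival factor, had a log2 fold change of 2.63, and NR4A2, an orphan nuclear receptor, one of 2.01. SNAI1, a zinc finger repressor, was at 30.6 to 61.3 CPM in KCl and 5.29 to 7.42 CPM in JTE (log2 fold change 2.77), and PNRC1, a nuclear receptor coactivator, at 11.4 to 16.9 against 1.28 to 4.35 CPM (2.29). LSMEM1, a small membrane protein gene, had 3.11 and SEMA4D, a semaphorin, had 1.59. ID2, an inhibitor of helix-loop-helix factors, was at 17, 15.2 and 39.1 CPM in KCl and 2.83, 3.57 and 7.53 CPM in JTE. Its log2 fold change of 2.36 (edgeR adjusted p 0.0239) was no longer called in 3 of the fits that left out 1 library. ID2 was the 1 called gene of 19 tested among JAK-STAT and ID targets, beside 4.29% called over all genes.

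Not every immediate early gene followed. EGR1, a zinc finger activator, was at 71.2, 60.2 and 165 CPM in KCl, 121, 73.4 and 45.5 CPM in JTE and 40.9, 159 and 109.8 CPM in CTRL. The 3 groups overlapped, and KCl over JTE was 0.30 (SE 0.62, edgeR adjusted p 0.959). ATF3, a stress-induced repressor, was at 61.0, 9.01 and 10.1 CPM in KCl and 42.0, 5.28 and 6.19 CPM in JTE. Replicate 1 was the high library in both treatments, and KCl was above JTE within each replicate number. In CTRL replicate 2 (47.8 CPM) was the high one. Numbers 1 and 2 of CTRL also ran crossed to the treatments over genes with a mean CPM over 10. The log2 fold change of ATF3 was 0.56 (SE 1.04, edgeR adjusted p 0.95) and was not called. With the replicate block, which rests on the CTRL numbers as labelled, ATF3 was not called either (edgeR adjusted p 0.83). MYC was at 363, 254 and 300.3 CPM in KCl and 248, 178 and 156 CPM in JTE, so the lowest KCl library stood just above the highest JTE library, and its log2 fold change of 0.65 (edgeR adjusted p 0.245) was not called.

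**Figure D2:**
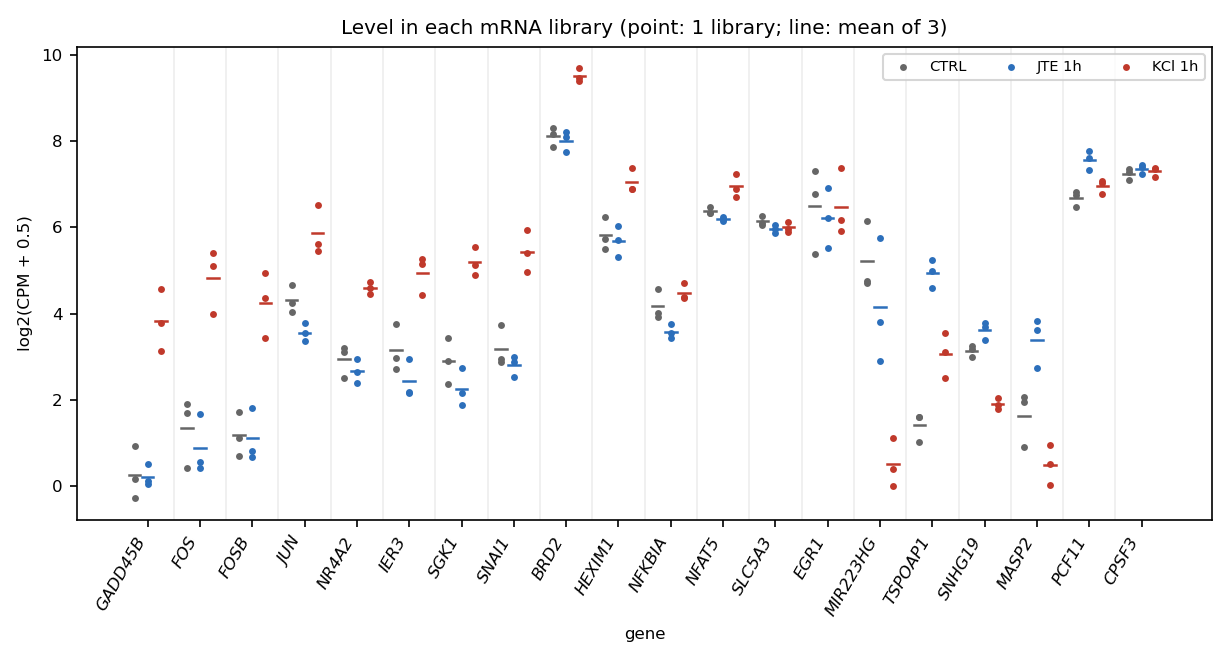
Levels as log2(CPM + 0.5) of the genes named along the horizontal axis, 1 point for each CTRL, JTE 1h and KCl 1h library and a line at each group mean. In FOS, GADD45B, SGK1 and BRD2 the KCl points lie above those of both other groups, TSPOAP1 and PCF11 are highest in JTE, MIR223HG is lowest in KCl, and the groups overlap in EGR1 and CPSF3.

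Of 26 tested feedback and growth arrest genes of the stress kinases 5 were higher in KCl than in JTE and none was lower, beside 2.56% higher over all genes. The median log2 fold change was 0.37. Over CTRL 2 of the 26 were higher in KCl, beside 2.51% over all genes, and 2 were lower in JTE, beside 0.464%. ZFP36, whose protein binds AU-rich elements and speeds mRNA decay, was at 15, 13.9 and 16 CPM in KCl, 5.92, 4.56 and 5.50 CPM in JTE and 11.2, 12.1 and 10.9 CPM in CTRL. The JTE libraries were the lowest of the 3 groups without overlap, and JTE 1h against CTRL was called (log2 fold change -1.10, edgeR adjusted p 0.000141) while KCl 1h against CTRL was not (0.39, edgeR adjusted p 0.106). KCl over JTE gave 1.49 (SE 0.14, edgeR adjusted p 6.22e-07).

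DUSP1, a phosphatase that switches off p38 and JNK, had the same arrangement. It was at 14.3, 12.7 and 17 CPM in KCl, 7.02, 6.48 and 5.66 CPM in JTE and 10.4, 10.7 and 11.7 CPM in CTRL, without overlap among the groups. The log2 fold change was 1.2 (SE 0.15, edgeR adjusted p 1.41e-05) against JTE, and JTE against CTRL was -0.78 (edgeR adjusted p 0.0099). ZFP36L1, a paralogue of ZFP36, differed from both by its rise in KCl, with 66.9, 50.2 and 49.4 CPM against 26.4, 17.3 and 13.5 CPM in JTE (log2 fold change 1.54) and a called rise over CTRL of 1.15. ZFP36L2, at 96.8 to 162 CPM in KCl and 56.1 to 73.2 CPM in JTE, had a log2 fold change of 0.94 (edgeR adjusted p 0.0219) and lost the call in 3 of the fits without 1 library. SOCS3, a feedback inhibitor of JAK-STAT signalling, was at 24.6, 12.4 and 20.3 CPM in KCl and 14.4, 10.2 and 15.2 CPM in JTE, which overlap, and KCl over JTE (0.52, edgeR adjusted p 0.357) was not called.

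Genes of the osmotic response proper moved little at 1 h. Of 35 tested 3 were higher in KCl (SGK1, NFAT5 and CITED2) and none was lower, beside 2.56% higher over all genes. The median log2 fold change was 0.08. Over CTRL 1 of the 35 (SGK1) was called higher in KCl, beside 2.51% over all genes, and 1 (CITED2) was called lower in JTE, beside 0.464%. NFAT5, the transcription factor of hypertonicity, was at 104, 119 and 152 CPM in KCl, 70.5, 74.6 and 73.0 CPM in JTE and 87.8, 79.7 and 80.5 CPM in CTRL. KCl was above JTE in 3 of 3 libraries without overlap (log2 fold change 0.78, SE 0.13, edgeR adjusted p 0.000361). Over CTRL NFAT5 in KCl (0.60, edgeR adjusted p 0.00384) did not pass the fold threshold and was not called. SLC38A2, a transporter of neutral amino acids on the same list, had means of 976 CPM in KCl, 359 CPM in JTE and 384 CPM in CTRL, and its log2 fold change of 1.44 was not called (edgeR adjusted p 0.0957), but was with the replicate block (edgeR adjusted p 0.0372), which took the list to 4 higher. It was looked up after its values were seen. The other transporters and the enzyme described here, known targets of NFAT5, overlapped between the treatments. SLC5A3, the myo-inositol transporter, gave 59.3 to 69.6 CPM in KCl and 58.3 to 65.6 CPM in JTE (0.04, edgeR adjusted p 0.983). SLC6A6, the taurine transporter, gave -0.18 (edgeR adjusted p 0.848), and AKR1B1, aldose reductase, which makes sorbitol, gave 0.14 (edgeR adjusted p 0.908).

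CITED2, a regulator of the coactivators CBP and p300, was lower in JTE than in both other groups. It was at 106, 79.9 and 65.1 CPM in KCl, 53.8, 39.5 and 27.7 CPM in JTE and 66.1, 89.4 and 65.1 CPM in CTRL, so that KCl and CTRL overlapped and JTE lay under both. KCl over JTE was 1.05 (SE 0.20, edgeR adjusted p 0.00178), and JTE over CTRL was -0.87 (edgeR adjusted p 0.0363).

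Of 19 tested NF-kB targets and cytokines 4 were higher in KCl (NFKBIA, REL, TNF and FGF18) and none was lower, beside 2.56% higher over all genes. The median log2 fold change was 0.50. Over CTRL only TNF and FGF18 were called higher in KCl, beside 2.51% over all genes, and no member was called in JTE. The medians over CTRL were 0.11 in KCl and -0.32 in JTE. TNF and FGF18 had at most 6 counts in each JTE library and at most 1 in each CTRL library. The filter on low counts admits such genes only through groups where they are detected, so these calls describe the 2 genes and add no support for the list. NFKBIA (0.30 in KCl, -0.63 in JTE) and REL (0.41 in KCl, -0.42 in JTE) were not called over CTRL in either treatment. NFKBIA, the inhibitor that restrains NF-kB, was at 20.3, 20.1 and 25.5 CPM in KCl and 11.2, 10.2 and 13.1 CPM in JTE (0.93, edgeR adjusted p 0.00646), without overlap, and REL, a subunit, gave 0.83 (edgeR adjusted p 0.0043). TNF was at 0.828, 0.301 and 0.605 CPM in KCl and had 1 count in all 3 JTE libraries together, a ratio of 28.3 with a 95% counting interval of 4.88 to 1140. FGF18, a growth factor that starts 8519 bases downstream of the highly expressed NPM1 on the same strand, was at 2.02, 3.36 and 4 CPM in KCl and 0.105, 0.0518 and 0.32 CPM in JTE (4.28, edgeR adjusted p 1.8e-06), and had a mean of 18.1 CPM at 3 h of KCl.

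Chaperones and the integrated stress response were largely level between the treatments. Of 23 tested heat shock genes 1 was called, a share near the 4.29% of all genes. It was DNAJB1, a co-chaperone of HSP70, at 115, 135 and 192 CPM in KCl and 79.0, 96.5 and 102 CPM in JTE (0.67, edgeR adjusted p 0.0135), and its call was lost without JTE replicate 1 and without KCl replicate 3. HSPA1A, an inducible HSP70, was at 85.4, 137 and 162 CPM in KCl and 55.6, 95.4 and 129 CPM in JTE, which overlap (0.46, edgeR adjusted p 0.658). Of 24 tested ATF4 and unfolded protein response genes DNAJB9, a co-chaperone of the endoplasmic reticulum, was the 1 called (0.95, edgeR adjusted p 0.00911), and not without JTE replicate 2.

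**Figure D3:**
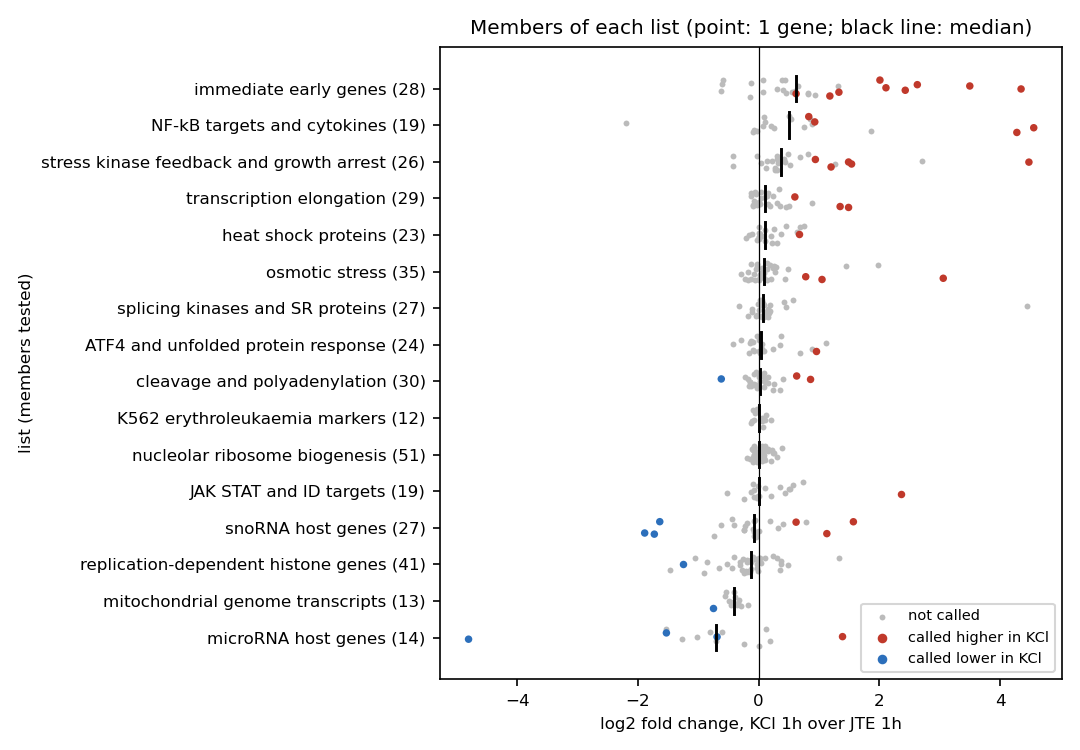
Log2 fold change of KCl 1h over JTE 1h for every tested member of each gene list, 1 point per gene and a black line at the median, with called genes coloured and the number tested in brackets. Immediate early genes have the highest median of the lists drawn, 0.62, microRNA host genes have the lowest, -0.70, and all 13 mitochondrial transcripts lie under 0.

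Of 29 tested controllers of transcription elongation 3 were higher in KCl (BRD2, HEXIM1 and ELL) and none was lower, with a median of 0.10, beside 2.56% higher over all genes. BRD2, a bromodomain protein that reads acetylated histones, was at 672, 707 and 827 CPM in KCl, 215, 273 and 295 CPM in JTE and 288, 233 and 316 CPM in CTRL. KCl lay above both other groups without overlap, JTE and CTRL overlapped, and KCl over JTE was 1.49 (SE 0.15, edgeR adjusted p 1.01e-06). HEXIM1, which holds the elongation kinase P-TEFb inactive, was at 118, 118 and 165 CPM in KCl and 39.5, 51.9 and 65.5 CPM in JTE (1.35, SE 0.24, edgeR adjusted p 0.000792). ELL, an elongation factor, was at 22.9, 19.5 and 17.7 CPM in KCl, 14.5, 14.7 and 10.2 CPM in JTE and 22.8, 19.6 and 18.5 CPM in CTRL, so its call of 0.60 went with lower JTE libraries. JTE against CTRL was called for ELL (-0.63, edgeR adjusted p 0.0351). The call of ELL between KCl and JTE was lost in 2 of the 6 fits without 1 library (log2 fold change from 0.45 to 0.69), and the list had 2 higher genes with RLE or upper quartile scaling.

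The 3′ end machinery gave the reverse order for PCF11. Of 30 tested genes of cleavage and polyadenylation PCF11 was lower in KCl, CASP8AP2 (0.63) and NPAT (0.86), which act in histone gene expression, were higher, and the median was 0.01. The shares over all genes were 1.73% lower and 2.56% higher. Of the 6 fits that left out 1 library, CASP8AP2 lost its call in 4, NPAT in 3 and PCF11 in 2. PCF11, a termination factor that autoregulates through an internal poly(A) site, was at 109, 134 and 129.6 CPM in KCl, 160, 195 and 218 CPM in JTE and 112, 88.1 and 108 CPM in CTRL. The JTE libraries were the highest without overlap, KCl over JTE was -0.62 (SE 0.11, edgeR adjusted p 0.000998), and JTE over CTRL was 0.90 (edgeR adjusted p 7.23e-05). CPSF3, which encodes the CPSF73 nuclease itself, was at 164, 167 and 143 CPM in KCl and 175, 169 and 150 CPM in JTE and did not differ beyond its spread (-0.06, edgeR adjusted p 0.934). CES1, whose esterase converts JTE-607 to its active acid, had too few reads to be tested and did not exceed 0.116 CPM in KCl, JTE or CTRL.

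None of 27 tested splicing kinases and SR proteins was called, nor any of 51 tested genes of nucleolar ribosome biogenesis, with medians of 0.07 and 0.01. The share called over all genes was 4.29%. CLK1, a kinase of SR proteins, was at 50.1, 46.7 and 45.1 CPM in KCl and 37.0, 30.8 and 35.6 CPM in JTE, which do not overlap, and its log2 fold change of 0.46 (edgeR adjusted p 0.0111) stayed under the fold threshold.

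MicroRNA host transcripts were the list with the lowest median. Of 28 host genes 14 were tested, 3 were lower in KCl (MIR223HG, MIR503HG and MIR600HG), MIR29B2CHG was higher, and the median was -0.70. The shares over all genes were 1.73% lower and 2.56% higher. Of the 6 fits that left out 1 library, MIR29B2CHG lost its call in 4, MIR503HG in 3 and MIR600HG in 1. With the replicate block 6 were lower and 1 was higher. The mature microRNAs were not measured, and their sequences are printed to show which products the 3 hosts described next carry. They come from RefSeq, build GRCh38.p14, 5′ to 3′, with the seed in capitals.
hsa-miR-223-5p: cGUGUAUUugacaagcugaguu
hsa-miR-223-3p: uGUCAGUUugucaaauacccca
hsa-miR-142-5p: cAUAAAGUagaaagcacuacu
hsa-miR-142-3p: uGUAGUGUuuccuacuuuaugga
hsa-miR-17-5p: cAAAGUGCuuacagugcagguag
hsa-miR-20a-5p: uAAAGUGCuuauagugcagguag
hsa-miR-18a-5p: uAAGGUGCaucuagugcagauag
hsa-miR-19a-3p: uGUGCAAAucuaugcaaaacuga
hsa-miR-19b-3p: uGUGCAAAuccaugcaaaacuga
hsa-miR-92a-3p: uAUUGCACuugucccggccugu
Within the MIR17HG cluster, miR-17-5p and miR-20a-5p share a seed, as do miR-19a-3p and miR-19b-3p.

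MIR223HG, the host of the myeloid miR-223 on chromosome X, was at 1.66, 0.502 and 0.814 CPM in KCl, 53.3, 13.4 and 6.99 CPM in JTE and 25.7, 70.9 and 26.6 CPM in CTRL. All KCl libraries were under all others, and the JTE libraries spread widely and overlapped CTRL. The log2 fold change of -4.81 (SE 1.2, edgeR adjusted p 0.0191) lost its call in 3 of the fits without 1 library. MIR17HG, the host of the miR-17-92 cluster on chromosome 13, was at 5.12, 6.45 and 5.65 CPM in KCl, 14.7, 14.9 and 5.71 CPM in JTE and 68.9, 48.1 and 54.0 CPM in CTRL. It was lower than CTRL in both treatments (-3.30 for KCl and -2.28 for JTE, both called), and KCl and JTE overlapped at JTE replicate 3 (-1.02, edgeR adjusted p 0.0568, and 0.0442 with the replicate block).

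MIR142HG and the gene behind it, TSPOAP1, moved in different ways. MIR142HG was at 1.14, 2.09 and 1.4 CPM in KCl, 4.72, 6.84 and 2.30 CPM in JTE and 12.3, 5.34 and 10.7 CPM in CTRL. KCl was lowest without overlap (-1.53 against JTE, edgeR adjusted p 0.0563, and 0.0295 with the replicate block). TSPOAP1, which starts 2124 bases downstream of MIR142HG on the minus strand of chromosome 17, was at 5.18, 8.09 and 11.2 CPM in KCl, 23.5, 31.1 and 37.3 CPM in JTE and 2.54, 1.52 and 2.51 CPM in CTRL. The 3 groups did not overlap, with JTE highest and CTRL lowest. KCl over JTE was -1.89 (SE 0.25, edgeR adjusted p 3.17e-05), beside 1.92 for KCl over CTRL and 3.81 for JTE over CTRL, which share the CTRL libraries.

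The other genes of the 12 largest falls were mixed in kind. MASP2, a protease of the complement system, was at 0.518, 0.921 and 1.42 CPM in KCl, 6.13, 11.7 and 13.7 CPM in JTE and 3.64, 1.36 and 3.34 CPM in CTRL. It was lower than CTRL in KCl (-1.47) and higher in JTE (1.92), both called, and KCl over JTE was -3.39 (SE 0.38, edgeR adjusted p 3.52e-06). MASP2 overlaps genes on the other strand, and the counting used no strand, so its reads may not all be its own. MRPL20-DT, a divergent transcript, was at 1.97, 2.63 and 2.84 CPM in KCl and 12.9, 12.6 and 16.9 CPM in JTE (-2.49, SE 0.19, edgeR adjusted p 4.49e-08), without overlap.

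SNHG4 and a MATR3 record (ENSG00000280987) lie over each other on chromosome 5, so that their reads are not independent, and gave -1.73 and -1.53. LENG8 was at 59.0, 32.5 and 28.5 CPM in KCl and 131, 116 and 77.6 CPM in JTE (-1.44, edgeR adjusted p 0.00124). LTB4R, a leukotriene receptor, gave -1.63, ERVK3-1, named for an endogenous retrovirus, -1.27, and the pseudogene NSUN5P1 -1.29. MZF1, a zinc finger factor, was at 4.30, 3.18 and 3.19 CPM in KCl and 13.5, 11.9 and 13.8 CPM in JTE (-1.90, edgeR adjusted p 5.85e-07), with no overlap.

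By gene type, the lower calls were weighted to long noncoding RNAs. They made up 13.3% of the tested genes and 146 of the 313 lower genes (46.6%), against 58 of the 464 higher genes, and their median log2 fold change was -0.16. Protein-coding genes gave 335 higher and 107 lower calls. Divergent transcripts with symbols ending in -DT gave 14 lower (5.88%) and 1 higher (0.42%) of 238 tested, and antisense transcripts named -AS gave 22 lower (4.31%) and 9 higher (1.76%) of 510, beside 1.73% lower and 2.56% higher over all genes. Over CTRL the median of long noncoding RNAs was -0.25 in KCl and -0.09 in JTE. These shares are descriptions, and the decay rates of the transcripts were not measured.

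Small nucleolar RNAs, which mostly guide the modification of ribosomal RNA and are mostly cut from introns of host genes, ran the other way. They were picked out after their values were seen. Of 43 tested 10 were higher in KCl (23.3%, beside 2.56% over all genes) and none was lower. The median of the 43 over CTRL was -0.61 in KCl and -1.15 in JTE, under CTRL in both treatments. SNORD99, within SNHG12 on the same strand, was at 5.44, 7.60 and 5.84 CPM in KCl, 0.262, 0.0518 and 0.427 CPM in JTE and 2.59, 0.943 and 2.17 CPM in CTRL. The 3 groups did not overlap, KCl over JTE was 4.65 (SE 0.53, edgeR adjusted p 3.87e-06), and both KCl over CTRL (1.73) and JTE over CTRL (-2.92) were called. SNORD100 and SNORD101, both within RPS12, gave 4.47 and 4.16, SNORD12C and SNORD12B, within ZFAS1, gave 2.94 and 2.60. SNORA73B gave 1.81, with -0.78 for KCl over CTRL (not called) and -2.59 for JTE over CTRL (called). Mature snoRNAs have no poly(A) tail, and whether the pairs came from the snoRNA or from an unspliced host transcript was not tested.

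Their host genes moved in both directions. Of 27 tested snoRNA hosts SNHG12, ZFAS1 and SNHG1 were higher and SNHG20, SNHG19 and SNHG4 were lower in KCl, with a median of -0.07. The shares over all genes were 2.56% higher and 1.73% lower. SNHG1 lost its call in 2 of the fits without 1 library. SNHG12 was at 45.8, 52.5 and 42.6 CPM in KCl, 13.5, 22.0 and 11.8 CPM in JTE and 48.7, 20.4 and 35.0 CPM in CTRL (1.57, edgeR adjusted p 0.0047), so KCl and CTRL overlapped. ZFAS1 gave 39.9 to 46.5 CPM in KCl and 16.2 to 23.1 CPM in JTE (1.13), and SNHG20 gave 2.49 to 3.25 against 8.81 to 9.93 CPM (-1.64).

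All 13 tested mRNAs of the mitochondrial genome had a negative log2 fold change, also under each of the other scalings, with a median of -0.41. Over all genes 9222 of 18095 were negative. For 5 of the 13 the edgeR adjusted p was under 0.05, beside 350 lower genes of all 18095. Of these MT-ND3, a subunit of complex I, passed the fold threshold as well, beside 1.73% called lower over all genes. It was at 618, 836 and 639 CPM in KCl, 1033, 1359 and 1129.7 CPM in JTE and 1116, 1088 and 1036 CPM in CTRL, with KCl under both without overlap (-0.75, SE 0.13, edgeR adjusted p 0.0007). The 13 genes summed to 67068 to 86769.7 CPM in KCl and 90604 to 108709 CPM in JTE. Of 41 tested replication-dependent histone genes, whose mRNAs normally lack a poly(A) tail, H2BC9 was the 1 called (-1.25, edgeR adjusted p 0.00197), beside 4.29% called over all genes. The median of these histone genes was -0.13.

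**Figure D4:**
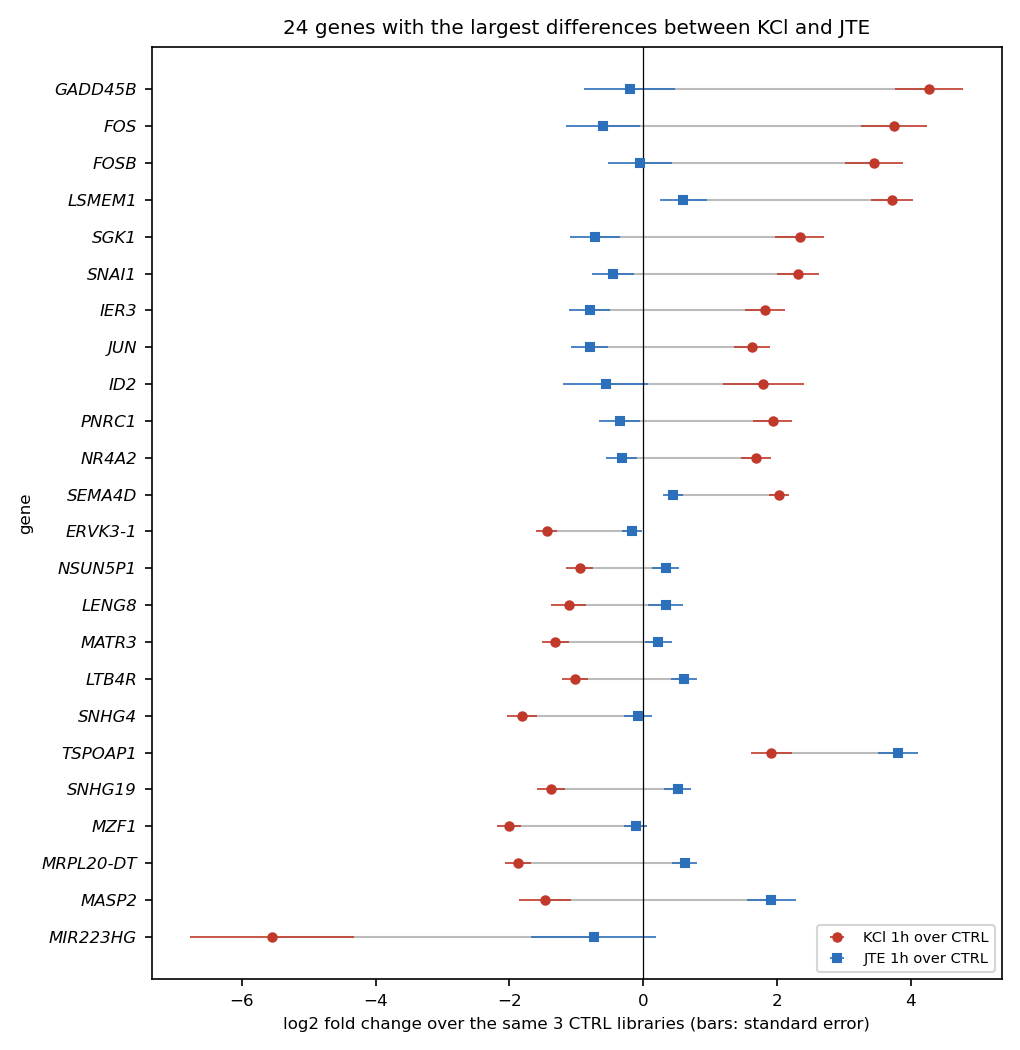
Log2 fold changes of KCl 1h over CTRL (circles) and of JTE 1h over CTRL (squares), with bars of 1 standard error, for the 24 genes of the largest differences between KCl and JTE, rises first. Both symbols use the same CTRL libraries. For FOS they lie at 3.75 and -0.60, for MASP2 on opposite sides of 0 at -1.47 and 1.92, and for TSPOAP1 both above 0 at 1.92 and 3.81.

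A set of genes close to silent in JTE was detected in KCl. Of the 464 higher genes 120 had at most 3 counts in each JTE library, 105 of these had at most 3 in each CTRL library as well, and 25 had 0 counts in every JTE and CTRL library. The filter on low counts admits such a gene only through groups where it is detected, so these counts describe the set and support nothing. Their median level was 0.569, 0.67 and 0.791 CPM in the KCl libraries, 113 of the 120 had over 3 counts in each KCl library, 74 were protein-coding, and 115 had over 3 counts in each library at 3 h of KCl. After thinning, 102 could be tested and 93 were called.

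The examples were chosen after their values were seen. KIAA1549L, at 1.29, 1.87 and 2.00 CPM in KCl and 0 counts in every JTE and CTRL library, was at least 35.0-fold higher in KCl, against a floor of 3 counts over the group. LRRC15, a membrane protein of stroma, was at least 22.5-fold higher, PADI6, an oocyte protein, at least 16.8-fold, and IL17F, a cytokine, at least 16-fold. On the other side, 13 lower genes had at most 3 counts in each KCl library, and 6 had at most 3 in each CTRL library. FAM83E, which starts 474 bases downstream of RPL18, was at 0.734, 0.622 and 1.98 CPM in JTE, 0, 0.0335 and 0.0698 CPM in KCl and 0, 0.105 and 0.0558 CPM in CTRL (-4.58, edgeR adjusted p 0.000291).

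Both treatments are known to extend transcription past gene ends, so weakly expressed genes were grouped by their distance downstream of an expressed gene on the same strand. Genes under a mean of 10 CPM that overlap no gene were taken, with an upstream gene of at least 10 CPM. Over all 3168 such genes 136 (4.29%) were higher and 77 (2.43%) were lower in KCl. Within 5000 bases 14 of 303 (4.62%) were higher and 19 (6.27%) lower, with a median log2 fold change of -0.06, and the medians over CTRL were 0.22 for KCl and 0.37 for JTE. From 10000 to 20000 bases 29 of 191 (15.2%) were higher and 4 (2.09%) lower, with a median of 0.11 and medians over CTRL of 0.18 for KCl and 0.06 for JTE. In the neighbouring classes, 13 of 147 (8.84%) were higher and 8 (5.44%) lower from 5000 to 10000 bases. From 20000 to 50000 bases 26 of 341 (7.62%) were higher and 6 (1.76%) lower. From 50000 to 100000 bases the counts were 7 and 6 of 316. With upstream genes of at least 50 CPM, 22 of 110 genes (20%) at 10000 to 20000 bases were higher. Several of the higher genes, among them IL17F, UBTFL6, REELD1 and CDKL2, were at or near 0 counts in JTE and CTRL. The filter on low counts admits such genes only through groups where they are detected. These shares therefore describe the classes and support nothing.

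A score per library was the mean log2(CPM + 0.5) of these genes minus that of isolated genes. It too used only genes that passed the filter, so the same limit holds. From 0 to 5000 and from 10000 to 20000 bases KCl and JTE overlapped but differed in the same direction within each replicate number. KCl minus JTE was 0.001, 0.025 and -0.097 from 5000 to 10000 bases, where the sign varied, and 0.027, 0.053 and 0.027 from 20000 to 50000 bases. For 10000 to 20000 bases the score was -0.017, 0.042 and 0.142 in KCl, -0.176, -0.12 and 0.025 in JTE and -0.176, -0.241 and -0.117 in CTRL. All KCl libraries lay above all CTRL libraries, and KCl minus JTE within each number was 0.16, 0.162 and 0.117 (mean 0.146, SD 0.025). For 0 to 5000 bases it was -0.251, -0.082 and -0.053 in KCl, -0.175, -0.042 and 0.086 in JTE and -0.27, -0.443 and -0.25 in CTRL, and here KCl minus JTE was -0.077, -0.04 and -0.139 (mean -0.085, SD 0.05), with all JTE libraries above all CTRL libraries. With 3 libraries against 3 an exact 2-sided permutation test cannot go below 0.1, and none was run.

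Some genes of each distance class were looked up after their values were seen. GNRH1, the gene of gonadotropin-releasing hormone, starts 3193 bases downstream of KCTD9 and was at 2.17, 1.87 and 1.16 CPM in KCl, 5.40, 6.53 and 5.02 CPM in JTE and 1.27, 1.41 and 1.28 CPM in CTRL (-1.72, edgeR adjusted p 3.7e-05), while KCTD9 itself had means of 79.1 and 74.0 CPM. GSTO2, 1414 bases downstream of GSTO1, had the opposite order, with 4.09, 3.57 and 4.98 CPM in KCl and 0.629, 0.881 and 1.65 CPM in JTE (1.99, edgeR adjusted p 0.000154). RASL11A, a small GTPase gene 13636 bases downstream of RPL21, was at 2.17, 2.49 and 2.7 CPM in KCl, 0.472, 0.414 and 0.694 CPM in JTE and 0.441, 0.314 and 0.446 CPM in CTRL (2.22, edgeR adjusted p 1.5e-05). The KCl libraries of RASL11A stood apart, and JTE and CTRL overlapped. IL17F starts 19472 bases downstream of MCM3, which had means of 347 CPM in KCl and 359 CPM in JTE.

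**Figure D5:**
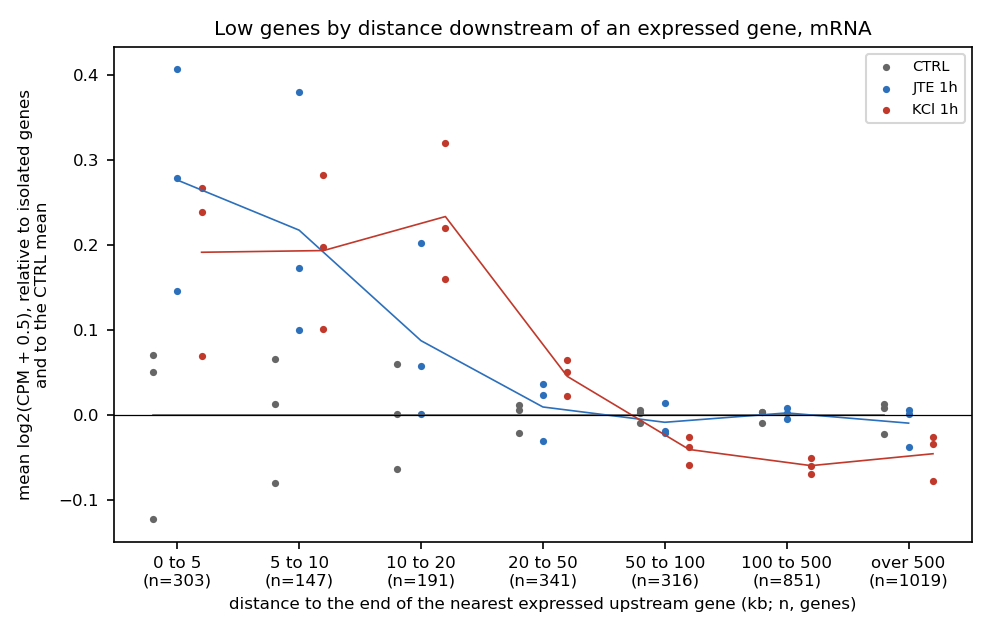
Weakly expressed genes by their distance in kilobases from the nearest expressed upstream gene on the same strand, with the mean log2(CPM + 0.5) of each class relative to isolated genes and to the CTRL mean, 1 point per library and a line through the group means. The JTE line is the higher one within 5 kilobases and the KCl line from 10 to 20 kilobases, the points of KCl and JTE overlap in both classes, and all groups lie within 0.1 of 0 beyond 20 kilobases.

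Nuclear RNA of the same treatments, made without poly(A) selection from 6 further libraries, gave 3489 calls of 21929 genes tested (15.9%), 2340 higher and 1149 lower in KCl. Of the mRNA calls that were tested in the nucleus, 283 of 458 higher genes were higher there (background 10.7%) and 202 of 310 lower genes were lower there (background 5.24%), with 1 gene called in opposite directions. The log2 fold changes of FOS were 4.35 in mRNA and 4.51 in nuclear RNA, of GADD45B 4.48 and 4.25, and of BRD2 1.49 and 1.49. Of the 120 genes close to silent in JTE mRNA 116 were tested in the nucleus and 109 were higher there, beside the background of 10.7%. The 116 are part of the 458 higher genes above and the 109 are part of the 283. The 120 genes were chosen by their mRNA values, and the filter admits them only through groups where they are detected. The count of 109 too describes the set and supports nothing, and the 283 of 458, which includes it, is a description as well.

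An interaction term over the 12 libraries asked whether the ratio of KCl to JTE differed between nucleus and mRNA, and it was called for 76 of 21117 genes (0.36%), with 57 higher (0.27%) and 19 lower (0.09%) in the nucleus. MZF1 and SNHG19, lower in KCl mRNA by log2 fold changes of -1.90 and -1.89, had nuclear values of -0.30 and -0.35, with interactions of 1.48 and 1.44 (edgeR adjusted p-values 0.0124 and 0.0115). SNORD99 and SNORD100, far higher in KCl mRNA, differed less in the nucleus, with interactions of -4.13 and -3.07 (edgeR adjusted p-values 0.000403 and 0.0106). NFAT5 had a nuclear log2 fold change of 0.20, and its interaction of -0.69 (edgeR adjusted p 0.195) was not called. Processed pseudogenes, 10.9% of the genes tested for the interaction, gave 35 of its 57 higher calls, and their reads can be shared with their parent genes.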

How the data were processed

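Read pairs were counted for poly(A) mRNA (27 libraries in 9 groups) and for rRNA-depleted nuclear RNA (15 libraries in 5 groups) of K562 cells. The values are raw counts per gene, which the authors deposited after trimming and deduplicating the reads, aligning them to hg38 with STAR (unique alignments only) and counting pairs over exons with featureCounts; pairs over several genes were left out, the strand was not used, and the annotation release is not given in the sources used here. Reads shared by near-identical or overlapping genes, and antisense reads, therefore make such genes uncertain. Deduplication without molecular identifiers can lower high counts, and counting intervals cover counting error only. No column lacked a sample.

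The test was the robust quasi-likelihood F test of edgeR 4.0.16 (R 4.3.3) on counts, with TMM factors and the filterByExpr filter, with all mRNA or all nuclear libraries in 1 fit and 1 term per group; the interaction used 12 libraries. A call needed more than 0.6 of log2 fold change and an adjusted p (Benjamini-Hochberg) under 0.05. In simulated counts for KCl against JTE in mRNA, 86% of 2-fold and 99% of 4-fold changes were recovered, with 10 false calls. The simulation used the same dispersion for every gene, independent replicates and changes only in genes over 1 CPM. Its recovery therefore does not cover rarer genes or the uneven and paired spread of the real libraries. Replicates of a group differed by more than sampling noise (chi-square per gene from 8.97 to 62.5), and p-values measure the spread between these samples.

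Replicate numbers come from the sample titles. Over genes with a mean CPM over 10, deviations from the group means correlated between same-numbered KCl and JTE libraries at 0.729, 0.789 and 0.825 in mRNA and at 0.617 to 0.748 in nuclear RNA, while other pairs ran from -0.634 to -0.0693, so the numbers pair these libraries. Against mRNA CTRL the numbers 1 and 2 ran crossed: CTRL 1 correlated at 0.715 with KCl 2 and 0.843 with JTE 2, CTRL 2 at 0.754 with KCl 1 and 0.869 with JTE 1, and the same numbers 1 and 2 from -0.244 to -0.134. The paper reports 19031221 mapped reads for mRNA CTRL 1 and 18333127 for CTRL 2, whereas the deposited counts hold these totals the other way round. Which numbering is right was not tested. Every blocked mRNA fit with CTRL in it rests on the numbers as labelled; the 6-library block does not.

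The genes named are the 12 largest called rises and falls (mean of at least 10 CPM in the higher group, no overlap), at most 6 called members of each list, and a list of defining genes. The members, lists and rules were chosen with earlier results of these data known. A fold against libraries without counts uses a floor of 3 counts over the group. Alternatives were DESeq2 1.42.0, other scalings, filters and read-in distances, no fold threshold, only the compared libraries, a replicate block, thinned counts and each library left out; the fits without the deepest KCl libraries, the 6-library block and the distance classes were chosen after seeing the data. Library totals of the 6 compared libraries ran from 19219839 to 62953314.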

Additional observations from a re-analysis of the deposited data

Results flagged for a closer look

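The ratio of KCl to JTE differed between nuclear RNA and mRNA in genes named in the text, by the interaction test in edgeR (log2, nuclear minus mRNA). It was 1.48 for MZF1 and 1.44 for SNHG19, which were lower in KCl mRNA and not called in the nucleus. It was -4.13 for SNORD99, -3.07 for SNORD100, -2.85 for SNORD101 and -1.85 for SNORA73B, all higher in KCl mRNA. It was 1.69 for DNAJC28, a gene that starts 12211 bases downstream of GART, at 2.59, 2.53 and 2.91 CPM in KCl mRNA and 1.10, 0.984 and 0.854 CPM in JTE mRNA.

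The KCl 3h libraries, which the comparison does not use, held transcripts of genes with 0 counts in every CTRL library. The mean level at 3 h was 0.766 CPM for KIAA1549L, 1.24 CPM for LRRC15, 1.08 CPM for IL17F, 1.69 CPM for LINC00461, 0.44 CPM for PADI6 and 0.537 CPM for MAP6. Groups of 3 libraries were not searched for outlying samples.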

How the results depend on the processing

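With the replicate number as a block, KCl 1h against JTE 1h gave 1038 calls in mRNA, JTE 1h against CTRL 258 and the interaction 123. The mRNA blocks with CTRL in them depend on the CTRL numbers, which ran crossed for replicates 1 and 2, whereas the block in the 6 compared libraries alone does not and gave 1063. Without a filter on low counts the calls were 1170 for KCl against JTE, 237 for JTE against CTRL, 5517 in nuclear RNA and 309 for the interaction. Among genes with a mean of at least 1 CPM they were 448 for KCl against JTE (219 higher, 229 lower), 450 for KCl against CTRL and 1489 in nuclear RNA (749 higher, 740 lower), fewer genes being tested. In fits of only the compared libraries they were 299 without the block, 465 for KCl against CTRL and 5 for JTE against CTRL. DESeq2 called 195 genes for the interaction. Without KCl replicates 2 and 3, which leaves 1 KCl library assumed to vary like the other groups, they were 142 for KCl against JTE and 224 for KCl against CTRL. Leaving out 1 library at a time gave 582 to 792 calls for KCl against JTE, 62 to 158 for JTE against CTRL (lowest without JTE replicate 3) and 27 to 88 for the interaction (lowest without nuclear JTE replicate 3). The cause of these shifts was not tested. The tandem read-in score of KCl minus JTE was -0.065, from -0.128 to 0.005 without 1 library, -0.089 within 5000 bases, 0.01 within 20000 and -0.041 with upstream genes of at least 50 CPM. That of the class from 10000 to 20000 bases was 0.146, from 0.103 to 0.204 without 1 library.

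Of the 62 called genes named, 42 kept the call in every alternative that tested them apart from those added after seeing the data, none changed direction, and none lost it under the block. In the 6-library fit 15 of 58 lost it, and without the 2 deepest libraries 25 of 62. Changes of sign fell among genes not called. SLC5A3 gave -0.003 with upper quartile scaling, -0.01 after thinning and -0.03 to 0.09 without 1 library. AKR1B1 ran from -0.02 to 0.32, EGR1 from -0.3 to 0.73, ATF3 from -0.91 to 2.19 and GADD45A from -0.21 to 0.45. Without the 2 deepest KCl libraries SLC5A3 was at -0.1, SLC6A6 at 0.03, EGR1 at -0.2 and HSPA1A at -0.16.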
